A study of Mus musculus with 6 samples.

Results

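Box H/ACA small nucleolar RNAs (snoRNAs) are short RNAs of the nucleolus that fold into a pair of hairpins joined by the H box and closed by a tail that carries the letters ACA. Together with dyskerin and its partner proteins they guide the change of selected uridines in ribosomal RNA (rRNA) into pseudouridine. Most mammalian H/ACA snoRNAs are cut out of introns of host genes, many of which encode ribosomal proteins or translation factors, and proliferating lymphocytes need them to make ribosomes. The genes described here are the named H/ACA snoRNA genes, defined as all genes in the count files whose Ensembl identifier GENCODE vM21 gives a symbol starting with Snora and the biotype snoRNA, except Snora73a and Snora73b. There were 40 such genes, with 38 symbols, among the 54547 genes in the files. They lie on 20 chromosomes and are 121 to 196 bases long, with a median of 132.

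Small RNA was sequenced from regulatory T (Treg) cells that had been sorted from the thymus of mice aged 7 weeks, labelled as strain background C5BL6/N. The study compared wild type (WT) mice with mice of the genotype miR-181a1/b1 -/- (miR-181a/b-1-/-, from here on KO), in which the genes of the microRNAs miR-181a-1 and miR-181b-1 are deleted. Each genotype had 3 libraries, and each library came, by the study's methods, from the pooled thymi of 3 mice. The methods call the libraries of a genotype biological replicates and say no more of their origin, so p-values measure the spread between these libraries, which may in part be technical.

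Counts on genes totalled 168293 to 307840 per library. The targeted genes could not check the labels, since Mir181a-1 had 1 count in WT replicate 2 and 0 elsewhere and Mir181b-1 had 0 in every library, WT included. The labelled cell type was checked against 6 Treg marker genes, all of which had counts (summed 205 to 237 counts in WT and 179 to 280 in KO libraries). The 6 general T cell markers also had counts, summing to 189 to 247 in WT and 140 to 219 in KO libraries. Markers of the other cell types given here were close to absent. The 4 erythroid markers had 0 counts in every library, including Hba-a1 and Hbb-bs. The 4 myeloid markers summed to 0 in each WT library and to 0 to 4 counts in the KO libraries, with Lyz2 and Csf1r at 0. The 6 markers of double-positive thymocytes summed to 1 to 5 counts, with Rag2 and Ptcra at 0. The libraries labelled replicate 3 stood apart in both genotypes by larger shares of H/ACA snoRNA, scaRNA and snRNA counts, as described with the shares of counts.

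The H box has the form ANANNA and the tail ACA stands a few bases from the 3′ end. Both were searched on the sense strand of the 40 sequences, which were taken from the GENCODE vM21 transcripts. ACA ended 2 to 5 bases before the 3′ end in 38 of the 40 genes (95%), and ANANNA started in the central part of 37 (92.5%). Both were found in 35 (87.5%), compared with 2.04% of 98 Snord genes, the box C/D class that guides methylation. The share was 3.07% of 1791 other GENCODE transcripts of the same length range, from which snoRNA and scaRNA genes were left out. Taken by itself, the middle motif was common, in 53.1% of these Snord genes and 56.8% of these other transcripts. The tail motif was found in 4.08% and 7.54%. Snora44 and Snora81 lacked the tail motif at this position, and Snora65, Snora74a and Snora78 lacked the middle motif. The 3 most abundant genes, the one with the largest difference between genotypes and the brain snoRNA Snora35 are shown first, since the results turn on them. Capitals mark matches to ANANNA in the central part and the tail ACA. Positions are given on GRCm38, with Snora21 on the reverse strand at chr11:97781639-97781775, Snora30 on the forward strand at chr7:127527874-127528003, Snora17 on the reverse strand at chr2:26639190-26639321, Snora41 on the forward strand at chr1:63179004-63179135 and Snora35 on the forward strand at chrX:146994381-146994508.
Snora21: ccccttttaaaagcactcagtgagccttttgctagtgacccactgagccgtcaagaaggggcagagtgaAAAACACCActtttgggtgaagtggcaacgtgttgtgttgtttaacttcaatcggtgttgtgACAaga
Snora30: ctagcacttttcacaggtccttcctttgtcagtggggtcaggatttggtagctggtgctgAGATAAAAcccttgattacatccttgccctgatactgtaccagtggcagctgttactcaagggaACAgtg
Snora17: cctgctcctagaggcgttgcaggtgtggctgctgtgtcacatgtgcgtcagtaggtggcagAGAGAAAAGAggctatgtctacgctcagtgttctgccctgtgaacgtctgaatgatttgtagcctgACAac
Snora41: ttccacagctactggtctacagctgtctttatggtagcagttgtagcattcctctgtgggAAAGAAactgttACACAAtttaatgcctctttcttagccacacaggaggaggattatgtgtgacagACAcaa
Snora35: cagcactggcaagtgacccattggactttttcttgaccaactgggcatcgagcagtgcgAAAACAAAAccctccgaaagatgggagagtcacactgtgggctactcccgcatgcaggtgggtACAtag

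Counts were found on 14 of the 40 H/ACA genes, and the other 26 had 0 counts in all 6 libraries. The split followed the annotation closely. Of the 13 genes that share no base with an exon of another gene on their strand, 12 had counts, and Snora35 was the 1 at 0. Of the 20 genes that lie wholly under such exons, 0 had counts. Of the 7 that are covered in part, 2 had counts, Snora34 and Snora2b. HTSeq, which the authors used for counting, gives a read that falls on more than 1 gene to none of them, and 20.4% to 24% of the records in a library were set aside for this. A value of 0 on a covered gene is therefore no measure of its RNA, and the part of these 26 zeros that comes from counting was not tested.

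Wholly covered genes of the other snoRNA classes were at 0 too. All 37 Snord genes and all 89 snoRNA genes with Gm names that lie wholly under another gene's exon on their strand had 0 counts, and of all 157 such snoRNA genes 100% were at 0. Without any overlap, 38 of 57 Snord genes and 118 of 1215 Gm snoRNA genes had counts, and of those covered in part 2 of 4 and 9 of 38 had. Exons on the opposite strand were different. Of 14 snoRNA genes wholly under an antisense exon alone, 6 had counts and 4 of them at least 10 over the 6 libraries, Snora73b with 250 to 535 counts per library among them, so the deposited counts keep the strands apart.

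**Figure D1:**
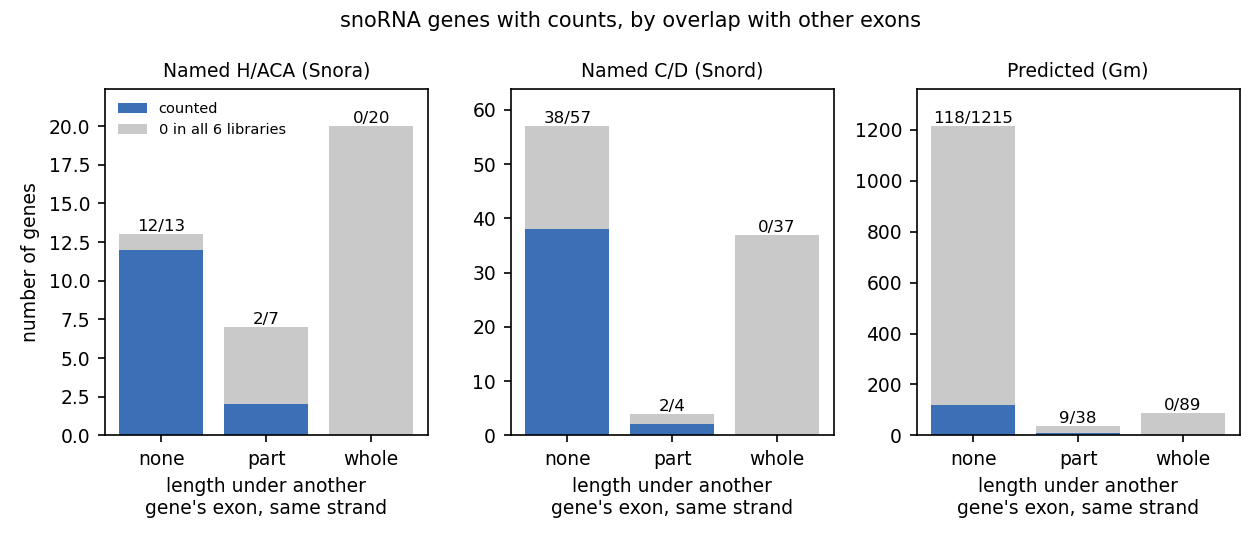
Number of snoRNA genes (vertical axis, a separate scale for each panel) by how much of their length lies under an exon of another gene on the same strand, for named H/ACA, named C/D and Gm genes. Blue marks genes with at least 1 count in any of the 6 libraries and grey those with 0 in all; the labels give counted genes over all genes, and no gene wholly under an exon had a count.

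The uncounted genes include well known guides. Snora24 and Snora44, guides of 18S rRNA, lie under annotated exons of the snoRNA host RNAs Snhg8 and Snhg12. Snora16a, a guide of 28S rRNA, lies in Snhg12 too. Exons here are those of any annotated transcript of a gene, so another transcript may hold the same bases in an intron. Snora75, in Ncl, Snora64, in Rps2, and Snora65, in Rpl12, are guides of 28S rRNA whose hosts encode nucleolin and the ribosomal proteins S2 and L12. Of the 11 H/ACA genes hosted by ribosomal protein genes, 8 were at 0 and 3 were tested (Snora21 in Rpl23, Snora62 in Rpsa and Snora69 in Rpl39). Of the 8 in Snhg genes or Dancr, 7 were at 0 and Snora78, in Snhg9, was tested. Snora16a and Snora43 are each annotated as 2 overlapping genes, and all 4 were at 0. Snora19, in Eif3a, is under a miRNA gene for 68 of its 132 bases, and its whole sequence of 132 bases is also that of Gm23658 elsewhere in the annotation.

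Snora34 and Snora2b are neighbours in Kansl2 that keep a stretch free of other exons, at their 3′ ends. The miRNA gene Mir1291 covers 92 of the 138 bases of Snora34, and an exon of Kansl2 covers 92 of the 137 bases of Snora2b. They are shown with the uncovered 46 and 45 bases in capitals, since reads that reach these are the ones that could be counted (the HTSeq overlap mode is not given in the sources used here). Snora34 is on the reverse strand of GRCm38 at chr15:98519716-98519853 and Snora2b at chr15:98526346-98526482.
Snora34: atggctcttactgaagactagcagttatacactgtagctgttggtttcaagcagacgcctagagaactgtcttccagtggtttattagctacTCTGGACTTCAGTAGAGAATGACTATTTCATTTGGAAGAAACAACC
Snora2b: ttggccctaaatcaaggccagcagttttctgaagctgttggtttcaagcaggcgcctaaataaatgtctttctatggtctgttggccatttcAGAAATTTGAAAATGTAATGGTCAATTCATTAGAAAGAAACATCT

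Snora34 had 4, 8 and 11 counts in the WT and 2, 4 and 16 in the KO libraries. Snora2b had 1, 5 and 4 counts against 0, 5 and 4. Both fell below the minimum for testing, which was 10 counts in at least 3 of the 6 libraries. Snora47, in an intron of Zbed3, was the lowest gene to pass it, with 6, 13 and 14 counts against 8, 13 and 15. The 1 H/ACA gene at 0 without any overlap was Snora35. It lies in an intron of Htr2c, which encodes a serotonin receptor, and is known as a brain snoRNA. A count of 0 allows it at most 9.75 to 17.8 CPM (counts scaled to 1000000 per library), and Htr2c itself had 1 count over all 6 libraries.

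The 40 genes held 2405, 2940 and 4124 counts in WT replicates 1, 2 and 3 and 2174, 3076 and 6061 in KO replicates 1, 2 and 3. These were 1.08% (95% Wilson interval 1.04% to 1.13%), 1.31% (1.26% to 1.36%) and 1.69% (1.64% to 1.75%) of the gene counts in the WT libraries. The shares were 1.29% (1.24% to 1.35%), 1.58% (1.52% to 1.63%) and 1.97% (1.92% to 2.02%) in the KO libraries. Intervals cover counting error only. They treat reads as independent, and amplified reads are not independent molecules, so they may be too narrow. Within each genotype the 3 libraries differed by more than these intervals, and the genotypes overlapped, at 1.36% ± 0.308 (SD, n = 3) in WT against 1.61% ± 0.340 (SD, n = 3) in KO Treg cells. The difference of 0.251 percentage points was smaller than the SD of either genotype. That SD includes a rise from replicate 1 to 3 that both genotypes shared, and KO lay above WT within each replicate number. Whether the numbers pair the libraries was not settled. The difference was 0.0726 without KO replicate 3, 0.112 without WT replicate 1, 0.416 without WT replicate 3 and 0.411 without KO replicate 1. In these bulk samples, fewer cells with a given RNA cannot be told apart from less of it per cell.

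The replicate 3 libraries had the highest share of H/ACA counts in both genotypes, and other small RNAs moved with it. The share of spliceosomal snRNA genes was 0.958%, 1.22% and 1.77% in the WT and 1.13%, 1.21% and 1.69% in the KO libraries. The share of scaRNA genes, the Cajal body relatives of snoRNAs, was 0.403%, 0.430% and 0.546% against 0.443%, 0.481% and 0.571%. Snord genes took far more of the counts of each library and did not share this order, at 32.4%, 31.6% and 30.3% against 29.9%, 29.6% and 31.7%. These are shares of counts on genes that could be counted. How fully RNAs of each class and length entered the libraries was not tested. As a share of snoRNA counts alone, the H/ACA genes took 3.11% ± 0.778 (SD, n = 3) in WT against 3.71% ± 0.608 (SD, n = 3) in KO libraries.

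**Figure D2:**
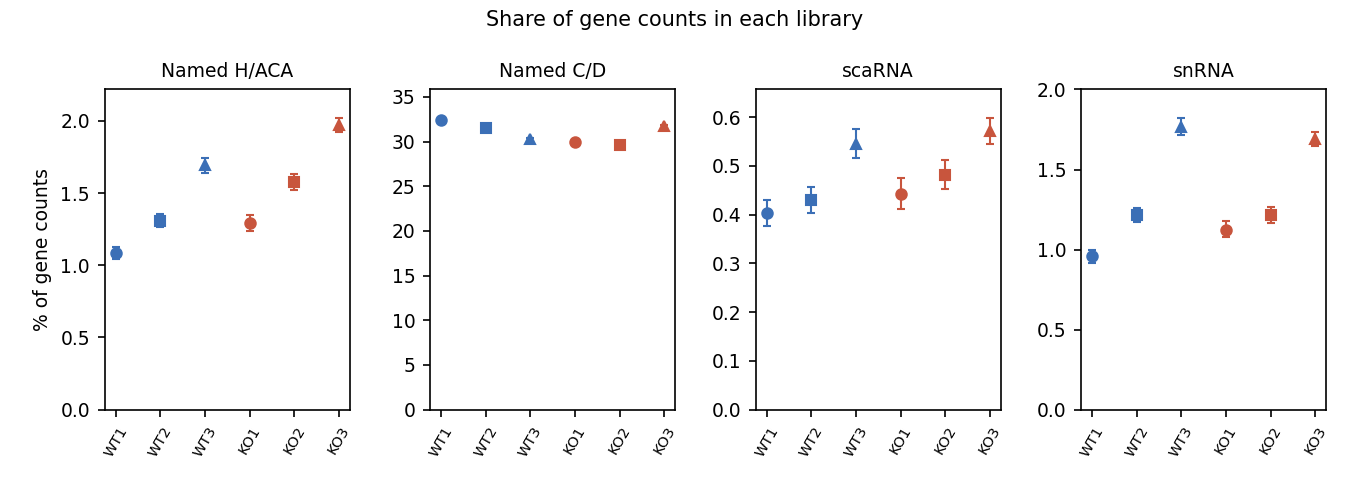
Share of each library's gene counts (vertical axis, %, from 0, a separate scale for each panel) on named H/ACA, named C/D, scaRNA and snRNA genes, with 95% Wilson intervals, in WT (blue) and KO (red) libraries 1 to 3. H/ACA, scaRNA and snRNA genes have their highest share in replicate 3 of both genotypes, whereas C/D genes have it there in KO and their lowest WT share in replicate 3.

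A few genes carried most of the H/ACA counts. Snora21 held 26.2% of them over all libraries, Snora30 22.7% and Snora17 16.1%, so that these 3 took 65% (63.4% to 66.9% across libraries), and the first 5 took 80.4%. The make-up was stable for Snora21, which ranged from 24.9% to 27.9% of the H/ACA counts, and for Snora57 (2.77% to 3.41%). It varied more for Snora30 (16.2% to 25.7%), for Snora78 (5.48% to 10.9%) and, at a low level, for Snora41 (0.510% to 1.52%). A share also moves with the counts of the other genes, and Snora78 was steady in normalized CPM, as given below.

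**Figure D3:**
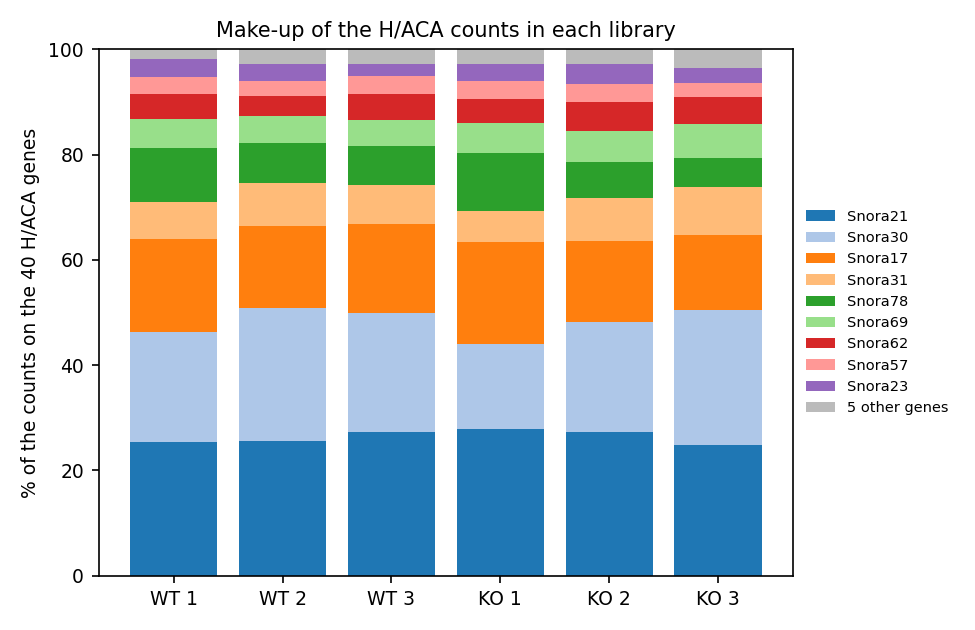
Make-up of the counts on the 40 H/ACA genes in each library (vertical axis, % of those counts), with the 9 most abundant genes in color and the other 5 counted genes in grey. Snora21, Snora30 and Snora17 together take 63.4% to 66.9% of these counts in each library.

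Levels between genes were compared per length, as CPM over the tested genes, normalized by the trimmed mean of M values (TMM), and per kilobase of gene. Over the 6 libraries the mean level was 32261 for Snora21, a guide of 28S rRNA in an intron of Rpl23, which encodes ribosomal protein L23, and 28962 for Snora30, in an intron of the chromatin remodeller gene Srcap. Snora17, another guide of 28S rRNA, which has no host on its strand in this annotation, had 20617. Levels then fell to 10082 for Snora31, in Tpt1, and 10038 for Snora78. They were 7346 for Snora69, a guide of 5.8S rRNA, 5476 for Snora62, a guide of 28S rRNA, 3535 for Snora57, which has no host on its strand, and 2812 for Snora23, in the importin gene Ipo7. The lowest were Snora20 (1707), a guide of 18S rRNA in the chaperonin gene Tcp1, Snora41 (1179), a guide of 18S rRNA in the elongation factor gene Eef1b2, and Snora47 (413.1). Neighbours in this order overlapped in their range over the 6 libraries in every case. Compared within a library, Snora31 exceeded Snora78 in 3 of 6 libraries and Snora21 exceeded Snora30 in 4, so these neighbours could not be ordered. Snora30 exceeded Snora17, and Snora78 exceeded Snora69, in 5 of 6. The other 7 neighbouring pairs kept their order in 6 of 6 libraries. These are levels divided by length, and the order of Snora57 over Snora23 depended on that division. Before it, Snora57 had 393, 422 and 608 normalized CPM in the WT and 434, 592 and 689 in the KO libraries. Snora23 had 398, 488 and 446 against 434, 648 and 689. Whether reads rise in proportion to length was not tested.

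Some of these levels may miss reads that have more than 1 place to align. Snora41 shares an exact stretch of 78 bases with the transcript of Gm23723, Snora57 shares 65 with Gm26132, Snora30 shares 64 with Gm25133, and Snora21 shares 51 with Gm23795. Snora17 shares at least 28 bases with 29 other genes, the longest stretch being 49. For Snora20, Snora23, Snora31, Snora47, Snora62, Snora69 and Snora78 no stretch of 28 bases was found in the transcript of a gene elsewhere. Copies outside annotated transcripts were not searched.

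The comparison of KO with WT Treg cells asks here whether loss of miR-181a/b-1 goes with a change in H/ACA snoRNAs. The study itself, with DESeq2, reported some miRNAs as moderately lower in KO Treg cells, and those are not the subject here. It was made with edgeR's quasi-likelihood test over all 1391 genes that passed the count minimum, of which 12 were H/ACA genes. With Benjamini-Hochberg adjustment 0 of the 12 passed an adjusted p of 0.05, and neither did any other gene (0%). At an unadjusted p under 0.05 there was 1, Snora41, compared with 5.18% of all genes tested. DESeq2 likewise gave 0 at an adjusted and 1 at an unadjusted p under 0.05, the latter compared with 1.73% of all genes. All 12 had a positive log2 fold change in the edgeR fit, compared with 49.3% of all genes. Their median was 0.33 (range 0.09 to 1.14), against -0.0040 over all genes tested, 0.01 over 39 Snord genes, 0.11 over 52 Gm snoRNA genes and 0.24 over 13 scaRNA genes. These 12 values come from the same 6 libraries, in which H/ACA counts moved together, and are not 12 independent results. The median was 0.15 without KO replicate 3 and likewise without WT replicate 1, and 0.55 without KO replicate 1. In none of the 12 did all KO libraries lie above all WT libraries, which 3.24% of all genes did.

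**Figure D4:**
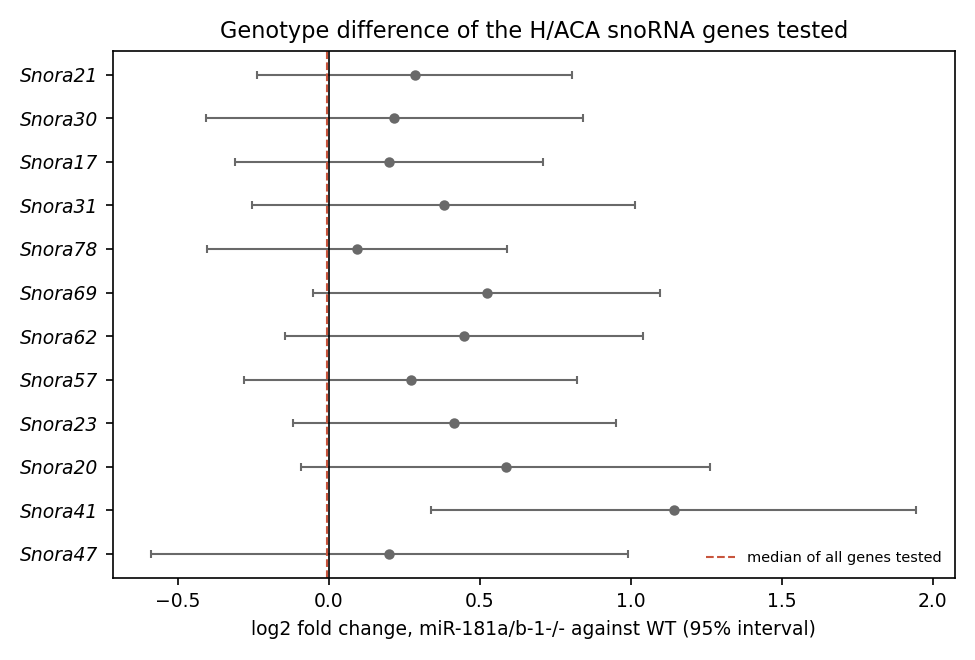
Log2 fold change (horizontal axis) of the 12 H/ACA genes tested, KO against WT, as points with 95% intervals from edgeR's quasi-likelihood fit, with the median of all genes tested as a dashed line. All 12 points lie right of 0, and the interval of Snora41 alone does not reach 0, before adjustment for 1391 tests.

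Snora41 had the largest difference. Its TMM-normalized CPM were 69.7, 76.2 and 149 in the WT and 127, 135 and 377 in the KO libraries. WT replicate 3 lay above 2 of the 3 KO libraries, and KO replicate 3 stood far above all others. The means were 98.2 ± 43.9 (SD, n = 3) and 213 ± 142 (SD, n = 3), a log2 fold change of 1.14 (standard error 0.39, 95% interval 0.34 to 1.95, unadjusted p = 0.00729 and adjusted p = 0.595 in edgeR's quasi-likelihood test). It was 0.41 without KO replicate 3, 0.84 without both replicate 3 libraries and 1.58 without WT replicate 3. These values rest on 14 to 92 counts per library. Fragments of its host, Eef1b2, had 222 ± 27.8 (SD, n = 3) normalized CPM in WT and 308 ± 32.3 (SD, n = 3) in KO libraries, a log2 fold change of 0.47 (adjusted p = 0.974 in the same edgeR test). Its values were 214, 198 and 252 in WT and 271, 333 and 320 in KO libraries, so that all KO libraries lay above all WT libraries, as in 3.24% of all genes.

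Snora20, another guide of 18S rRNA, had 99.6, 198 and 230 normalized CPM in the WT and 175, 231 and 377 in the KO libraries. KO replicate 1 lay below 2 of the 3 WT libraries. Its log2 fold change was 0.59 (standard error 0.33, 95% interval -0.09 to 1.26, adjusted p = 0.974, edgeR). Snora69 came next, with 672, 778 and 924 against 754, 1026 and 1620. Its lowest KO library lay between WT libraries, and its log2 fold change was 0.52 (95% interval -0.05 to 1.1, adjusted p = 0.974, edgeR). For the host genes the log2 fold change was -0.37 (standard error 0.49) for Tcp1, the host of Snora20, and 0.27 (standard error 0.26) for Rpl39, that of Snora69.

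Snora62, in Rpsa, had 563, 569 and 942 normalized CPM in the WT and 609, 970 and 1243 in the KO libraries, a log2 fold change of 0.45 (95% interval -0.14 to 1.04). Snora23 had 398, 488 and 446 against 434, 648 and 689, a log2 fold change of 0.42 (-0.12 to 0.95). In both, WT values reached above the lowest KO library. Snora31 had 836, 1225 and 1361 against 772, 1409 and 2260 (0.38, interval -0.25 to 1.02), with the lowest value of all in KO replicate 1.

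The most abundant genes differed less between genotypes than between libraries of a genotype. Snora21 had 3037, 3832 and 5088 normalized CPM in the WT and 3655, 4730 and 6178 in the KO libraries. The log2 fold change was 0.29 (standard error 0.25, 95% interval -0.24 to 0.81, adjusted p = 0.980, edgeR), whereas both replicate 3 libraries lay above the other 4. Fragments of its host Rpl23 ran from 222 to 392 without this order, with a log2 fold change of 0.05. Snora30 had 2509, 3760 and 4182 against 2117, 3630 and 6391, so that the KO libraries held both its lowest and its highest value. Its log2 fold change of 0.22 became -0.27 without KO replicate 3. Snora17 had 2111, 2327 and 3159 against 2539, 2661 and 3532 (log2 fold change 0.20, interval -0.31 to 0.71).

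Both replicate 3 libraries lay above the other 4 in 5 of the 12 H/ACA genes (Snora21, Snora30, Snora17, Snora57 and Snora41), compared with 10.2% of all genes tested. The same held in 19 of 27 snRNA genes, 5 of 13 scaRNA genes and 11 of 39 Snord genes, and in 5.79% of the 1140 protein-coding genes.

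Snora57 had 393, 422 and 608 normalized CPM in the WT and 434, 592 and 689 in the KO libraries (log2 fold change 0.27, interval -0.28 to 0.82). Snora78 was the steadiest gene, with 1230, 1133 and 1365 against 1435, 1184 and 1362, and its log2 fold change was 0.09. The coefficient of variation of Snora78 was 9.39% in WT and 9.74% in KO libraries, whereas that of Snora41 was 44.7% and 66.8% and that of Snora30 was 25.0% and 53.6%. Snora47, the lowest, had 29.9, 66.1 and 63.1 against 48.2, 73.3 and 61.5. KO replicate 2 was its highest library and WT replicate 1 its lowest. At 6 to 15 counts per library, its 95% interval ran from -0.59 to 0.99 on the log2 scale.

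**Figure D5:**
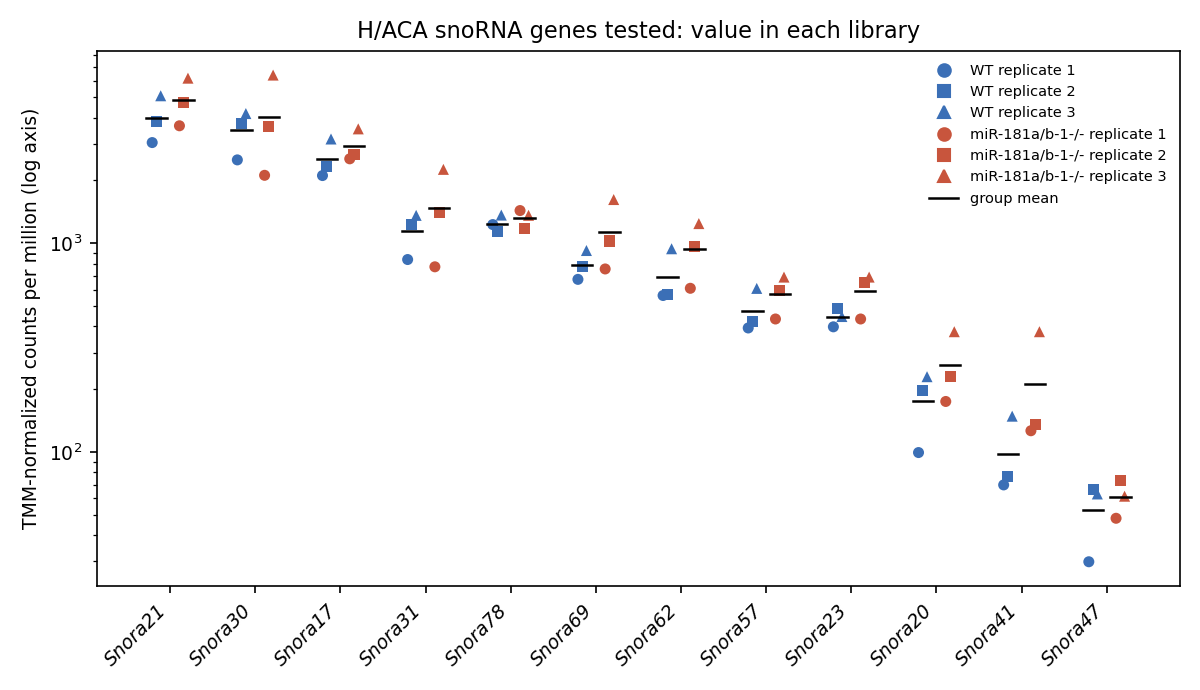
TMM-normalized CPM (vertical axis, logarithmic) of the 12 H/ACA genes tested, ordered by level per kilobase, in the 3 WT (blue) and 3 KO (red) libraries, with group means as bars. The genotypes overlap for every gene, and the triangles of replicate 3 are often the highest, as for Snora41 at 149 and 377.

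A list of 20 genes of snoRNA biology, which holds the H/ACA core and assembly proteins, nucleolar and Cajal body proteins, the C/D core proteins and the telomerase RNA, had counts on every gene, and 3 passed the count minimum. In edgeR's test 0 of the 3 had a p under 0.05, adjusted or unadjusted. Dkc1, which encodes dyskerin, the pseudouridine synthase, had 11, 10 and 13 counts in the WT and 17, 8 and 11 in the KO libraries (log2 fold change 0.18, standard error 0.39). Nop58, a core protein of the C/D class, was at -0.01 (standard error 0.34), and Tcof1, which encodes the nucleolar protein treacle, at 0.58 (standard error 0.41). The other H/ACA core proteins Nop10, Nhp2 and Gar1 had 39, 28 and 7 counts over all libraries. Terc, the telomerase RNA, which also ends in an H/ACA domain, had 5, 8 and 9 counts against 11, 7 and 10 and was too low to be tested. The snoRNA left out by definition, Snora73b, had 1712 ± 310 (SD, n = 3) normalized CPM in WT and 1993 ± 423 (SD, n = 3) in KO libraries, a log2 fold change of 0.22.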

How the data were processed

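Small RNA libraries of sorted thymic Treg cells (3 WT and 3 miR-181a/b-1-/-) took genotype and replicate number from the sample titles. The authors trimmed adapters with Flexbar 3.4, removed rRNA reads with Bowtie 2, aligned with STAR and deposited HTSeq counts per gene without normalization. The submitters' processing notes name GRCm38.p6; the annotation release is not given in the sources used here. Of 54547 identifiers, 53620 matched GENCODE vM21 (GRCm38) without version. Records given to no gene (75.7% to 80.3% per library) were left out. A deposited table of miRNA features with the authors' DESeq2 fold changes and p-values was not used.

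Genes with at least 10 counts in at least 3 libraries were tested with edgeR 4.0.16 (TMM, quasi-likelihood, genotype only, Benjamini-Hochberg) in R 4.3.3. Standard errors were the absolute log2 fold change over the root of the F statistic, and 95% intervals used the test's degrees of freedom. A match to ANANNA had to start in the central part of a sequence, the middle one of 3 equal parts. Alternatives were DESeq2 1.42.0, other filters and normalizations, a replicate block, leaving out each library and, chosen after seeing the data, leaving out both replicate 3 libraries. Wilson intervals came from SciPy 1.17.1, and the limit for a gene at 0 was set at 3 counts. The fit was tested on simulated counts with known changes. The depth limits the precision of genes with few counts.

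The H/ACA genes and all lists were chosen with earlier results of these data known. Named genes were the 12 highest per kilobase, those with small p-values or extreme fold changes, those beside the count minimum, Snora35 as a tissue check, members that share a host or symbol, and hosts and pathway genes. Snora19 and genes named for overlaps, shared stretches or box motifs were named after their values were seen. A genome sequence was not used here, so copies were searched in annotated transcripts instead of the planned search of the genome. rRNA targets are background knowledge. 1 list of marker genes is not reported here.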

Additional observations from a re-analysis of the deposited data

How the results depend on the processing

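In none of the 13 alternatives did an H/ACA gene pass an adjusted p of 0.05, whereas of all genes 8 did without KO replicate 1, 2 without KO replicate 2, 4 without KO replicate 3, 8 with no count filter and 14 without both replicate 3 libraries. With the settings of the report 0 passed an adjusted p of 0.1. The adjusted p of Snora41 ran from 0.0719 (without KO replicate 1) to 1. The number higher at an unadjusted p under 0.05 was 1 and became 3 with no count filter, where 2.66% of all genes had such a p in either direction. It ran from 0 to 6 when each library was left out, with 0 without KO replicate 3, 4 without WT replicate 3 and 6 without KO replicate 1, when 5.25%, 6.47% and 7.91% of all genes had such a p. The cause was not tested.

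With the replicate number as a block the number was 5 (Snora23, Snora41, Snora20, Snora62 and Snora69), compared with 6.33% of all genes, and the median log2 fold change of the 12 was 0.29. Deviations from the group means correlated at 0.23, 0.08 and 0.18 over 1391 genes for numbers 1, 2 and 3, and each library correlated best with its own number. Over the 12 H/ACA genes alone the values were 0.45, 0.54 and 0.55, and those between different numbers were negative. Deviations from a group mean cancel out within a genotype, so positive same-number values bring negative ones between numbers on average. No label ties the numbers to a shared day or litter and the second value over all genes is low, so the numbers were not taken to pair the libraries, and whether they do was not settled.

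The sign of the log2 fold change reversed for Snora31 without KO replicate 3 (-0.058), for Snora30 without WT replicate 1 (-0.0027), without KO replicate 3 (-0.27) and without both replicate 3 libraries (-0.12), and for Snora47 without WT replicate 1 (-0.096). Leaving out each library gave up to 0.68 for Snora31, 0.52 for Snora30 and 0.37 for Snora47. The other 9 kept a positive sign under all alternatives, but their size moved when 1 library was left out. Without KO replicate 3 it was 0.08 for Snora21, 0.05 for Snora17, 0.12 for Snora57, 0.21 for Snora20, 0.18 for Snora69 and 0.20 for Snora62, and without WT replicate 3 it was 0.50 for Snora21, 0.39 for Snora17, 0.49 for Snora57 and 0.74 for Snora62. Snora78 ran from 0.027 without KO replicate 1 to 0.17 without WT replicate 3. The median ran from 0.15 to 0.55 when each library was left out and was 0.20 with TMM over snoRNA genes, which moved the median of all genes to -0.10. As a share of snoRNA counts the difference between genotypes was 0.601 percentage points, by its smaller denominator. The count minimum left 11 genes when asked of every library and 14 genes had any count. Snora41 and Snora47 had the largest standard errors (0.39 and 0.38), at 14 and 6 counts in their lowest library. No snoRNA gene wholly under another gene's exon on its strand had a count, so these counts gave no measure of such genes. Whether more depth would change this was not tested.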
